A study of Sus scrofa with 19 samples.

Results

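The peptide transporter SLC15A1, the glutathione-cleaving enzyme GGT1 and the metalloreductase relative STEAP1 are described here in the endometrium of gilts, which are young female pigs (Sus scrofa). The 3 genes are 3 of 3010 genes that had a symbol and a tested probe, and they were found through the RefSeq accession of each probe, matched without version to the Sscrofa11.1 gene table. They were chosen by their measured values on these arrays, which were high in hormone-infused horns (for SLC15A1 also in placebo horns) against control gilts, so comparisons that use those arrays are given for them as a description. Crossbred gilts of 8 months had both uterine horns cannulated on days 8 to 9 of the oestrous cycle, and infusions followed on days 11 to 12, at intervals of 4 h for 24 h. Of 6 treated gilts, 6 hormone horns were measured, each given prostaglandin E2 (PGE2, 200 µg per infusion) with estradiol (E2, 33.3 µg per infusion). From 5 of the same gilts the contralateral horn, given vehicle only (5 mL saline with 1% ethanol), was measured as the placebo horn. The 4 control gilts received vehicle in both horns, marked L and P in the labels, which do not say what the marks mean. All groups shared the surgery and the intrauterine infusion of vehicle, and the placebo horn shared the animal, and so the circulation, with a hormone horn. The hormone horn of gilt 40, marked L, has no partner here. In the other 5 treated gilts the hormone horn was marked P and the placebo horn L. Hormone and mark therefore cannot be told apart in these pairs.

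SLC15A1 takes up dipeptides and tripeptides together with protons and is best known from the apical brush border of the small intestine. GGT1 is an enzyme of the outer cell surface that splits extracellular glutathione, after which dipeptidases release cysteine for uptake. STEAP proteins have 6 membrane-spanning segments and reduce iron and copper ions. STEAP1 itself lacks the NADPH-binding domain of its relatives. Before implantation the pig conceptus lives on what the endometrium secretes and transports, which gives surface transporters and enzymes of this epithelium their interest. The arrays measured RNA of whole endometrium, so the place of these proteins in the cell is background and not a result.

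Each level is a log2 signal from which the log2 75th percentile of its own array was subtracted. A level of 0 is thus the brightness of that percentile and 1 unit is a doubling, and levels of different probes are not comparable. Between 79.1% and 88.4% of spots per array were well above background. All 6 measured epithelial markers of the 11 listed, such as EPCAM and KRT8, and all 5 measured stromal markers of 10 were well above background on every array. Gilt 47 stood apart: its median B cell marker lay 3.07 and 3.32 above the control mean in the hormone and placebo horn, and its median macrophage marker 2.48 and 2.79. These were the highest such medians on any array, and the hormone array of gilt 36 had the lowest 75th percentile, 597. Fewer cells of a type and less RNA per cell cannot be told apart in such samples.

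SLC15A1 was measured by 2 probes. With the brighter one, hormone horns had levels of -2.26 at the lowest, -0.91 at the median and 0.77 at the highest, the last in gilt 40. Placebo horns had -0.66 in gilt 38, -0.74 in gilt 47, -1.83 in gilt 36, -2.98 in gilt 41 and -3.99 in gilt 44. Control horns had -3.16, -3.22, -5.79 and -6.36 among those marked L and -3.58, -3.87, -4.88 and -6.07 among those marked P. Every hormone horn lay above every control horn, by at least 0.89, and 4 of 5 placebo horns did, with the placebo horn of gilt 44 inside the control range. Hormone and placebo horns overlapped widely, since both spread over more than 3 log2 units.

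The means of SLC15A1 were -0.87 ± 1.35 in hormone horns (SD, n = 6), -2.04 ± 1.44 in placebo horns (SD, n = 5) and -4.61 ± 1.35 in control gilts (SD, n = 4, horns averaged). In the model of all arrays, hormone horns lay 3.74 ± 0.68 above control gilts (estimate ± SE, 13.4-fold) and placebo horns 2.75 ± 0.71 (6.73-fold). Both differences use the same control arrays. The dimmer probe gave 2.57 ± 0.48 and 1.82 ± 0.50. With background corrected by normexp on median signals, the brighter probe gave 2.33 for hormone horns and 1.56 for placebo horns.

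The control gilts themselves differed in SLC15A1. Both horns of gilts 14 and 46 had levels between -3.87 and -3.16, while those of gilts 9 and 28 had levels between -6.36 and -4.88. The raw signals behind the low levels were 9.71 to 26.6, against 61.7 to 93.4 in gilts 14 and 46, and the L horn of gilt 28 was not well above background. The dimmer probe showed the same split, with -5.04 to -4.57 in gilts 14 and 46 and -6.07 to -5.57 in gilts 9 and 28.

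GGT1 had 1 probe, well above background on all 19 arrays. Hormone horns had levels of -2.11 at the lowest, -0.78 at the median and 0.50 at the highest, again in gilt 40. Placebo horns had -0.39 in gilt 47, -1.45 in gilt 36, -2.57 in gilt 38, -2.68 in gilt 41 and -2.94 in gilt 44. Control horns had -3.29, -3.30, -3.92 and -4.01 among those marked L and -3.44, -3.64, -4.15 and -4.57 among those marked P. GGT1 separated the treated from the control gilts completely: the lowest hormone horn lay 1.18 and the lowest placebo horn 0.35 above the highest control horn. Among the 3010 genes, all hormone horns lay above every control horn in 7.81%, and all placebo horns did in 5.22%. The control horns lay close together, within 1.28 log2 units.

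The means of GGT1 were -0.88 ± 0.92 in hormone horns (SD, n = 6), -2.0 ± 1.07 in placebo horns (SD, n = 5) and -3.79 ± 0.38 in control gilts (SD, n = 4). Hormone horns lay 2.91 ± 0.45 above control gilts (7.50-fold) and placebo horns 1.93 ± 0.47 (3.82-fold), with the control arrays shared. With normexp the differences were 2.05 and 1.28.

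STEAP1 also had 1 probe, well above background on all arrays. The gene table classes its entry as "other" and not as protein coding, unlike those of SLC15A1 and GGT1. Hormone horns had levels of -1.81 in gilt 36, -0.99 in gilt 44, 0.93 in gilt 41, 1.43 in gilt 38, 1.66 in gilt 47 and 2.40 in gilt 40. Placebo horns had 2.46 in gilt 47, 0.67 in gilt 38, -1.33 in gilt 41, -2.31 in gilt 36 and -2.56 in gilt 44. Control horns had -1.81, -2.23, -2.50 and -3.52 among those marked L and -2.24, -2.87, -2.94 and -3.58 among those marked P. The treated gilts split here: gilts 38, 40, 41 and 47 had high hormone horns, while that of gilt 36 cleared the highest control horn by only 0.0059. The placebo horns of gilts 36 and 44 lay inside the control range, and 3 of 5 placebo horns were above it.

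The means of STEAP1 were 0.60 ± 1.64 in hormone horns (SD, n = 6), -0.61 ± 2.14 in placebo horns (SD, n = 5) and -2.71 ± 0.51 in control gilts (SD, n = 4). Hormone horns lay 3.31 ± 0.76 above control gilts (9.94-fold) and placebo horns 2.29 ± 0.78 (4.89-fold). The spread of placebo horns, 5.02 log2 units from lowest to highest, was wider than the difference of their mean from control gilts. Without gilt 47 the placebo difference was 1.56.

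**Figure D1:**
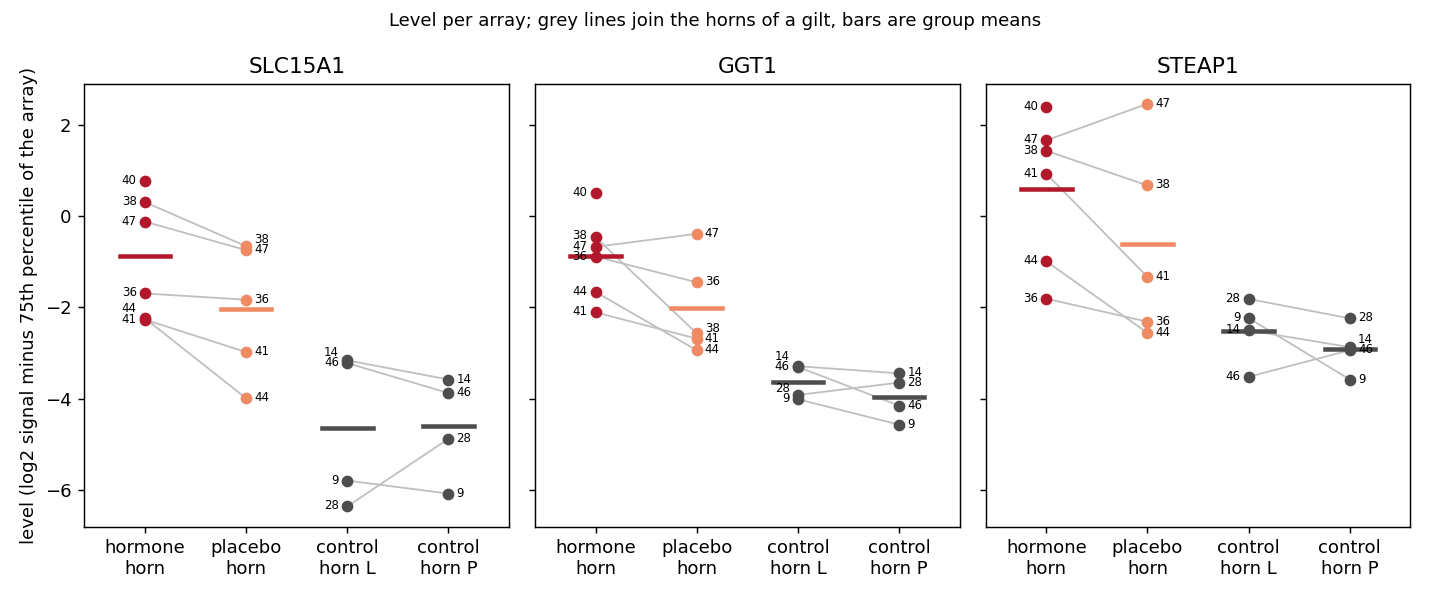
Level of SLC15A1 (brighter probe), GGT1 and STEAP1 on each array, as log2 signal minus the 75th percentile of the array, by group; points are arrays labelled with the gilt, bars are group means and grey lines join the horns of a gilt. All 6 hormone horns lie above the control horns for each gene, and for GGT1 all 5 placebo horns do too.

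All of the genes passed in hormone horns against control gilts, where 15.1% of the 3010 genes passed, 12.7% as higher and 2.46% as lower, and all 6 hormone arrays lay above all 8 control arrays in 7.81% of genes. In placebo horns against control gilts SLC15A1 and GGT1 passed and STEAP1 did not, beside 4.49% of genes that passed, 3.65% as higher and 0.831% as lower. Over all probes 11.6% passed in hormone horns (6.72% higher, 4.93% lower) and 4.42% in placebo horns (2.46% higher, 1.96% lower). All 5 placebo arrays lay above all control arrays in 5.22% of genes, GGT1 among them. These shares are background, and nothing is read from the count of the 3 genes, which were chosen for being high in these arrays.

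Scan day, as the file headers give it, was set beside these differences, because each of the 3 days held 2 hormone horns and 1 or 2 control gilts. Within days 1, 2 and 3 the mean hormone horn lay 3.97, 3.74 and 3.64 above the control gilts for SLC15A1, and 3.01, 2.77 and 3.16 for GGT1. The dimmer SLC15A1 probe gave 2.33, 2.52 and 3.03. For STEAP1 they were 1.51, 4.02 and 4.77, lowest on day 1, which held gilts 36 and 44. For placebo horns against control gilts the values within days 1, 2 and 3 were 3.02, 1.51 and 2.84 for SLC15A1, 2.09, 0.89 and 2.25 for GGT1, and 0.47, 1.02 and 4.79 for STEAP1. The placebo value of day 2 rests on gilt 41 alone, and that of STEAP1 on day 3 on gilts 38 and 47. Only 1 slide held both kinds of animal, gilts 36 and 9. There the hormone horn of gilt 36 lay above the mean horn of gilt 9 by 4.24 for SLC15A1, 3.40 for GGT1 and 1.10 for STEAP1, and the placebo horn by 4.10, 2.84 and 0.59. All other gilts had a slide of their own, so for them slide and animal cannot be told apart.

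The hormone horn was next set against the placebo horn of the same gilt, which asks whether the infused side differed from the other side of the animal. SLC15A1 was higher in the hormone horn of all 5 gilts, by 1.75 in gilt 44, 0.97 in gilt 38, 0.71 in gilt 41, 0.62 in gilt 47 and 0.14 in gilt 36. A higher hormone horn in all 5 gilts occurred in 6.31% of genes. The dimmer SLC15A1 probe gave 1.22, 0.73, 0.37, 0.48 and 0.21 in the same gilts. GGT1 was higher in 4 of 5 gilts, by 2.10 in gilt 38, 1.28 in gilt 44, 0.58 in gilt 41 and 0.56 in gilt 36, while gilt 47 had -0.29. STEAP1 was higher in 4 of 5 gilts too, by 2.26 in gilt 41, 1.57 in gilt 44, 0.76 in gilt 38 and 0.51 in gilt 36, while gilt 47 had -0.80. A higher hormone horn in at least 4 of 5 gilts occurred in 27.5% of genes. In gilt 36 the raw signals were lower in the hormone than in the placebo horn. They were 185 and 277 for the brighter SLC15A1 probe, 323 and 360 for GGT1, and 171 and 198 for STEAP1. Scaling each array to its 75th percentile, 597 in the hormone and 983 in the placebo horn, reversed that order.

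Over all arrays the hormone horn lay 0.99 ± 0.48 above the placebo horn for SLC15A1, 0.97 ± 0.32 for GGT1 and 1.02 ± 0.53 for STEAP1 (estimate ± SE), near a doubling for each. These estimates include the unpaired hormone horn of gilt 40, the highest for each gene. Over the 5 pairs alone the mean differences were 0.84, 0.85 and 0.86. None of these probes passed, and 0.00256% of all probes did, which is 1 of 39098 (3877 had an unadjusted p under 0.05; limma). The hormone arrays are those that singled out the genes, so no p is given. The order of the gilts was alike on both sides: for SLC15A1 gilts 38, 47 and 36 had the highest levels of the 5 paired gilts in hormone and in placebo horns, and gilts 41 and 44 the lowest. Within scan day 3, which held gilts 38 and 47, the STEAP1 difference between horns was -0.02. Within day 2 the model gave 2.60, using the 1 pair of that day, gilt 41 (2.26), and the unpaired hormone horn of gilt 40. Without gilt 47 the differences were 1.54 for STEAP1, 1.32 for GGT1 and 1.13 for SLC15A1, and with the hormone horn of gilt 36 left out too they were 1.97, 1.41 and 1.34. Other gilts lowered the differences when left out, to 0.72 for STEAP1 without gilt 41, 0.69 for GGT1 without gilt 38 and 0.76 for SLC15A1 without gilt 44.

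The horns marked L and P of control gilts, both given vehicle, show how much these genes differ between horns without hormone. In the treated pairs hormone minus placebo is P minus L, so the L minus P values below run in the opposite direction. The mean of these control arrays entered the choice of the genes, but the difference between L and P did not, and it was tested. SLC15A1 differed between L and P by 0.28, 0.42, -1.48 and 0.66 in gilts 9, 14, 28 and 46, with an estimate of -0.03 ± 0.55 (limma adjusted p = 1). Its dimmer probe, well above background on all of these arrays, gave 0.27, -0.10, -0.14 and 0.13, with an estimate of 0.04 ± 0.39. GGT1 differed by 0.56, 0.16, -0.27 and 0.85, with an estimate of 0.32 ± 0.37 (limma adjusted p = 1). STEAP1 differed by 1.34, 0.37, 0.42 and -0.58, with an estimate of 0.39 ± 0.61 (limma adjusted p = 1). Each estimate was smaller in size than the SD between control gilts (1.35, 0.38 and 0.51). In at least 1 gilt the difference was larger than the SD for GGT1, STEAP1 and the brighter SLC15A1 probe. With the dimmer SLC15A1 probe (SD 0.60) no gilt exceeded it. Of all probes 0% passed (935 had an unadjusted p under 0.05). For the brighter SLC15A1 probe the standard error leaves room for a difference of the size seen between hormone and placebo horns. For GGT1 and STEAP1 it leaves such room only with L above P, which is opposite to the treated pairs. The L horn of gilt 28, which gave the -1.48, was the SLC15A1 spot not well above background, and without gilt 28 the SLC15A1 estimate was 0.45.

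**Figure D2:**
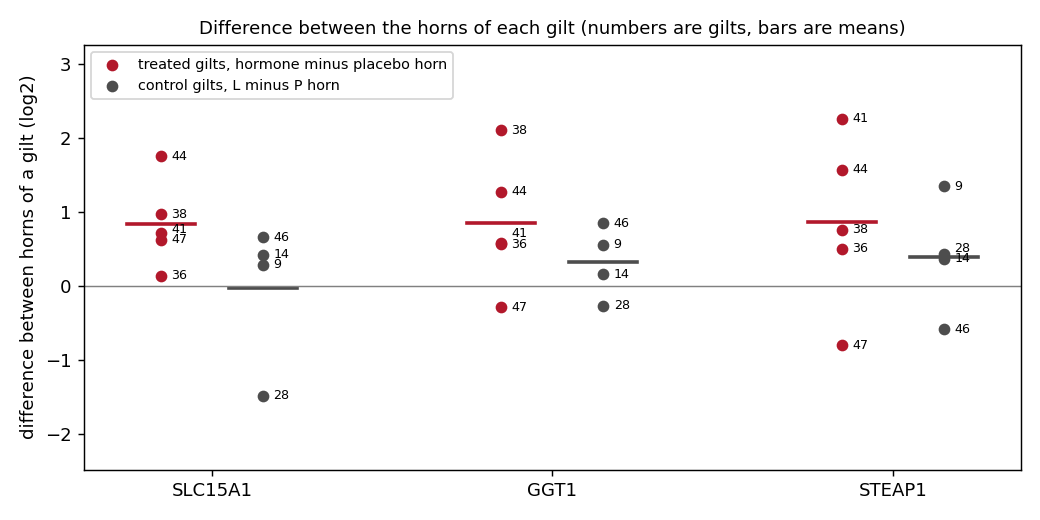
Difference between the horns of each gilt (log2) for SLC15A1, GGT1 and STEAP1, as hormone minus placebo horn in 5 treated gilts and L minus P horn in 4 control gilts. Points are gilts and bars are means. In all 5 treated gilts the hormone horn is marked P and the placebo horn L, so the control differences run in the opposite direction. SLC15A1 is above 0 in all 5 treated gilts, while gilt 47 is below 0 for GGT1 and STEAP1, and the ranges of treated and control gilts overlap for each gene.

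The genes did not rise to the same extent in the same animals. Gilt 40 had the highest hormone horn for all of them. Gilt 41 had the lowest hormone horn for SLC15A1 and GGT1, while its STEAP1 level of 0.93 lay above those of gilts 36 and 44. Its hormone horn lay above its own placebo horn by 0.71 for SLC15A1, 0.58 for GGT1 and 2.26 for STEAP1. Gilt 36 had the lowest STEAP1 but an intermediate GGT1 of -0.89. Deviations from the group means correlated at 0.73 between SLC15A1 and GGT1, 0.51 between SLC15A1 and STEAP1 and 0.51 between GGT1 and STEAP1 (Pearson r over 19 arrays, which share 10 gilts and their slides). The 2 SLC15A1 probes correlated at 0.93 in the same way, and the dimmer one correlated at 0.81 with GGT1. Levels without group means taken out correlated with STEAP1 at 0.79 for the brighter and 0.84 for the dimmer SLC15A1 probe.

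Among the 2948 genes with a value on every array, SGK1, a kinase induced by steroids and stress that acts on epithelial transport, had the levels most like SLC15A1 (r = 0.93) and also most like GGT1 (r = 0.93). F11R, a tight junction adhesion molecule, came next for SLC15A1 (r = 0.92), and SUSD2, a membrane protein, after it (r = 0.91) and next for GGT1 (r = 0.92). MUC4, a membrane mucin of epithelial surfaces, was also near SLC15A1 (r = 0.89). The other genes near GGT1 were PTGR1, which acts on prostaglandin metabolites (r = 0.91), SLC15A1 (r = 0.91) and the peptidoglycan recognition gene PGLYRP3 (r = 0.90). STEAP1 had other neighbours: PCK2, a mitochondrial enzyme (r = 0.95), the calgranulins S100A9 (r = 0.94) and S100A8 (r = 0.92), the lysosomal gene PSAP (r = 0.93) and MUC4 (r = 0.92). These values run over 19 arrays of 10 gilts and include the difference between treated and control animals.

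With group means taken out, SGK1 (r = 0.84) and F11R (r = 0.81) stayed nearest to SLC15A1, followed by CPB1 (r = 0.80), SUSD2 (r = 0.79) and PRR5 (r = 0.79). PGLYRP3 was nearest to GGT1 (r = 0.87), followed by STAT4 (r = 0.79), BCAS1, SUSD2 and TPBG (r = 0.78, 0.78 and 0.77). For STEAP1 the nearest were UGP2, an enzyme of nucleotide sugar synthesis (r = 0.92), the complement gene C9 (r = 0.90), PCK2 (r = 0.90), S100A9 (r = 0.88) and TFRC, the transferrin receptor that brings iron into cells (r = 0.87).

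Levels of immune and epithelial markers were set beside the genes. Of 10 listed neutrophil markers 6 were measured, S100A8, S100A9, S100A12, TREM1 and PGLYRP1 among them, with a summed signal of 1132 to 59816 in hormone horns, 393 to 57921 in placebo horns and 391 to 749 in control horns. The S100 genes passed as higher in hormone horns against control gilts, and S100A8 in placebo horns. PGLYRP1 went the other way, with -1.39 in hormone and -1.48 in placebo horns, and did not pass. TREM1 was well above background on 9 arrays only, and the 3 S100 genes can also be made by inflamed epithelium. The median neutrophil marker above the control mean was 6.55 in the hormone horn of gilt 47, 5.31 in gilt 41, 4.71 in gilt 38, 2.70 in gilt 40, 1.86 in gilt 44 and 1.33 in gilt 36. In placebo horns it was 7.50 in gilt 47, 4.69 in gilt 38, 3.82 in gilt 41, 1.36 in gilt 36 and -0.70 in gilt 44. STEAP1 was lowest in gilts 36 and 44, where these markers were lowest, in hormone as in placebo horns. SLC15A1 and GGT1 were highest in the hormone horn of gilt 40, where the marker median was 2.70, and lowest in that of gilt 41, where it was 5.31. Among placebo horns both were lowest in gilt 44, where the marker median was also lowest (-0.70). There SLC15A1 was highest in gilts 38 and 47 (marker medians 4.69 and 7.50) and GGT1 in gilt 47. The part of these cells in the differences was not tested.

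**Figure D3:**
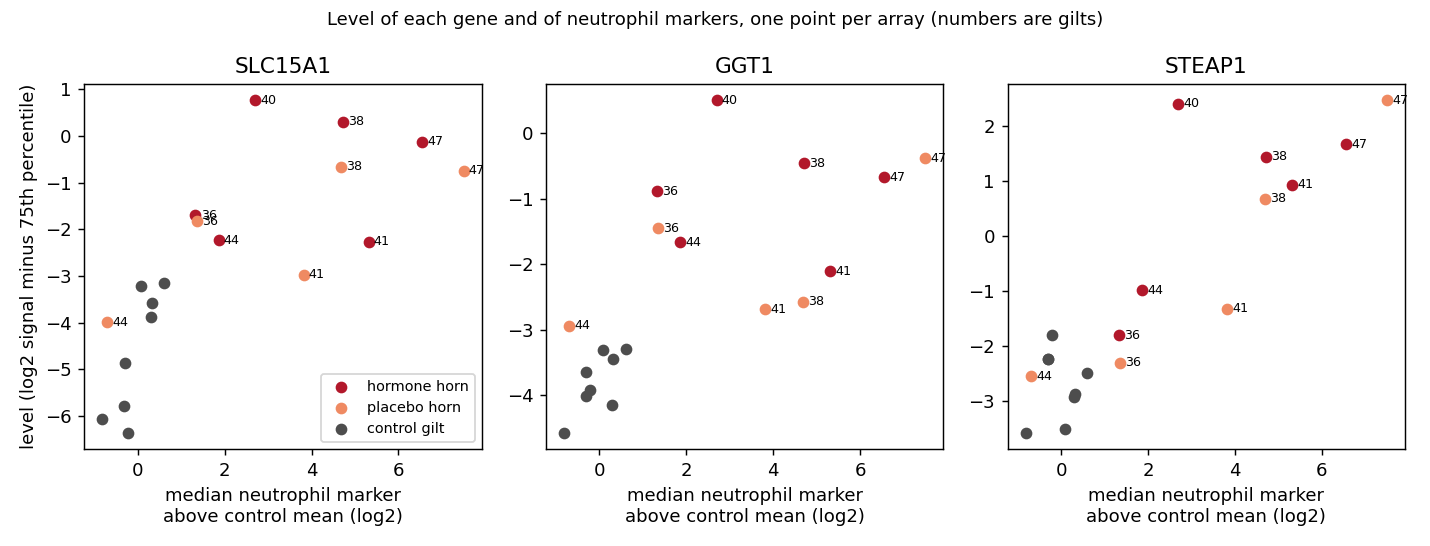
Level of SLC15A1, GGT1 and STEAP1 (log2 signal minus the 75th percentile) against the median of 6 neutrophil markers above the control mean (log2), with 1 point per array, coloured by group and labelled with the gilt for treated animals. Gilt 40 has the highest hormone horn for all of the genes at a marker median of 2.70. Within hormone and within placebo horns, gilts 36 and 44 are lowest in both STEAP1 and the markers. Of their arrays only the placebo horn of gilt 44 lies inside the control range of the markers.

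Of the 6 measured epithelial markers, EPCAM (0.69, limma adjusted p = 0.0025), CDH1 (0.95, limma adjusted p = 0.0204) and CLDN4 (1.35, limma adjusted p = 0.0146) rose in hormone horns against control gilts, and KRT8, CLDN7 and ESRP1 were at -0.33, 0.11 and -0.03 and did not pass. The first 3 rose in placebo horns as well, by 0.57, 0.95 and 1.53. The summed signal of the list was 84264 to 127105 in hormone horns, 77433 to 158599 in placebo horns and 68897 to 118400 in control horns. The median epithelial marker was 0.01 to 0.81 above the control mean in hormone horns, -0.07 to 0.64 in placebo horns and -0.37 to 0.15 in control horns. Markers of other cell types moved too: 3 of 4 measured endothelial markers (VWF 0.78, CDH5 0.61 and ENG 0.64), 2 of 5 stromal (COL1A2 0.74 and THY1 2.40) and 2 of 8 of macrophages and dendritic cells (CD14 1.42 and LYZ 2.54) rose in hormone horns against control gilts. LYZ rose in placebo horns as well, by 2.66. Of 9 measured T and NK cell markers GZMB alone passed, as lower (-0.94). The others all went the other way, from 0.20 for KLRK1 to 1.22 for CD3G, and did not pass. The part of these cell types in the differences was not tested.

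Listed genes of uptake beside SLC15A1 went in both directions. Of 12 measured members of the 29 listed genes of amino acid and peptide uptake, 1 (8.33%, beside 15.1% of all genes) passed in hormone horns against control gilts, as higher, and 11 did not. Their values ran from -2.27 to 1.62 with a median of -0.24, beside 0.17 over all 3010 genes. SLC3A1, the heavy subunit of a transporter for cystine and basic amino acids, rose by 1.56 ± 0.41 (limma adjusted p = 0.0218), with 1.74 ± 1.02 in hormone horns (SD, n = 6) and 0.19 ± 0.16 in control gilts (SD, n = 4). All 4 probes of SLC3A1 passed, but the brightest did not without control gilt 9, 14 or 28 (highest adjusted p 0.0804) or with both horns of control gilts averaged (0.0666). SLC1A1, which carries glutamate and cysteine, had 1.62 ± 0.57 with its brightest probe (limma adjusted p = 0.0729), while 3 of its 4 probes passed. SLC7A2, a carrier of basic amino acids, had -1.18 (limma adjusted p = 0.13), SLC38A5, a carrier of glutamine and other neutral amino acids, 0.41 (limma adjusted p = 0.189), and SLC7A9, the partner subunit of SLC3A1, -2.27 (limma adjusted p = 0.0744).

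SLC15A2, the high-affinity relative of SLC15A1, did not follow it. Its level was -3.29 ± 1.21 in hormone horns (SD, n = 6), -2.99 ± 1.25 in placebo horns (SD, n = 5) and -2.82 ± 0.27 in control gilts (SD, n = 4), a difference of -0.47 ± 0.47 for hormone horns against control gilts (limma adjusted p = 0.557). SLC15A2 was the one other measured member of the SLC15, GGT and STEAP families, and the further relatives on the lists were not analysed here.

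None of the 12 measured genes, of 22 listed, of cell surface peptidases and proton exchange passed in hormone horns against control gilts (limma; 4 had an unadjusted p under 0.05), and their median was -0.02. ENPEP, a surface aminopeptidase, had 0.68 (limma adjusted p = 0.0955). The proton exchanger SLC9A2 had -0.96 (limma adjusted p = 0.0742). The secreted and surface protease MEP1A had -0.81 (limma adjusted p = 0.105).

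Around GGT1, 3 of 14 measured genes of glutathione metabolism (42 listed) rose in hormone horns against control gilts, none fell, and 11 did not pass (21.4% passed, beside 15.1% of all genes), with a median of 0.40. GLRX, which reduces protein disulfides with glutathione, rose by 1.90 ± 0.46 (limma adjusted p = 0.0152), with 1.90 ± 1.09 in hormone horns and 0.0029 ± 0.30 in control gilts. Both of its probes passed, but not without control gilt 9, 14 or 28 for the brighter one (highest adjusted p 0.0583). GPX2, a glutathione peroxidase of epithelia, rose by 1.04 ± 0.23 (limma adjusted p = 0.00942), with -0.03 ± 0.36 in hormone horns and -1.07 ± 0.39 in control gilts. PRDX6, a peroxidase that uses glutathione, rose by 0.95 ± 0.22 (limma adjusted p = 0.0113), and all 6 of its probes passed. GPX2 and PRDX6 passed whichever gilt was left out. MGST3, a membrane glutathione transferase, had 0.46 (limma adjusted p = 0.0573). GSS, which completes glutathione synthesis, had 0.27 (limma adjusted p = 0.268). DPEP1, a dipeptidase that acts after GGT1 and is listed with the peptidases, had 0.44 (limma adjusted p = 0.465).

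Around STEAP1, 1 of 19 measured genes of iron and copper handling (36 listed) rose in hormone horns against control gilts, none fell, and 18 did not pass (5.26% passed, beside 15.1% of all genes), with a median of 0.21. LCN2, which binds iron carriers of bacteria and is made by neutrophils and epithelia, rose by 2.39 ± 0.70 (limma adjusted p = 0.0355), with -0.51 ± 1.81 in hormone horns and -2.89 ± 0.32 in control gilts. It did not pass without gilt 9, 14, 28, 40, 44 or 46 (highest adjusted p 0.103) or with both horns of control gilts averaged (0.0947). TFRC had 1.32 ± 0.48 (limma adjusted p = 0.0828) and the iron importer SLC11A2 1.00 ± 0.33 (limma adjusted p = 0.0577). HMOX2, a haem oxygenase, had -0.52 (limma adjusted p = 0.0886). TF, the iron carrier of plasma, was at 0.01 and HAMP, the iron hormone hepcidin, at 0.16, with adjusted p of 0.994 and 0.479 (limma).

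Other genes of the apical membrane and microvilli rose in 3 of 10 measured cases (28 listed), none fell and 7 did not pass (30% passed, beside 15.1% of all genes), with a median of 0.52. UPK1B, a membrane protein of the urothelial surface, rose by 2.42 ± 0.48 (limma adjusted p = 0.00592), with -0.64 ± 1.18 in hormone horns and -3.06 ± 0.63 in control gilts. MUC4 rose by 2.27 ± 0.51 (limma adjusted p = 0.0107), with 3.46 ± 1.11 in hormone horns and 1.19 ± 0.42 in control gilts. UPK1B and MUC4 passed whichever gilt was left out. CA4, a carbonic anhydrase anchored to the outer membrane, rose by 2.25 ± 0.61 (limma adjusted p = 0.0244) but did not pass without gilt 9, 14, 28 or 46 (highest adjusted p 0.0827), with both horns of control gilts averaged (0.0712) or with the slide as a random block (0.0555). LGALS4, a galectin of epithelia, had 0.59 (limma adjusted p = 0.131) with its brighter probe, while its other probe passed. SLC34A2, a phosphate transporter, had 0.30 (limma adjusted p = 0.29).

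**Figure D4:**
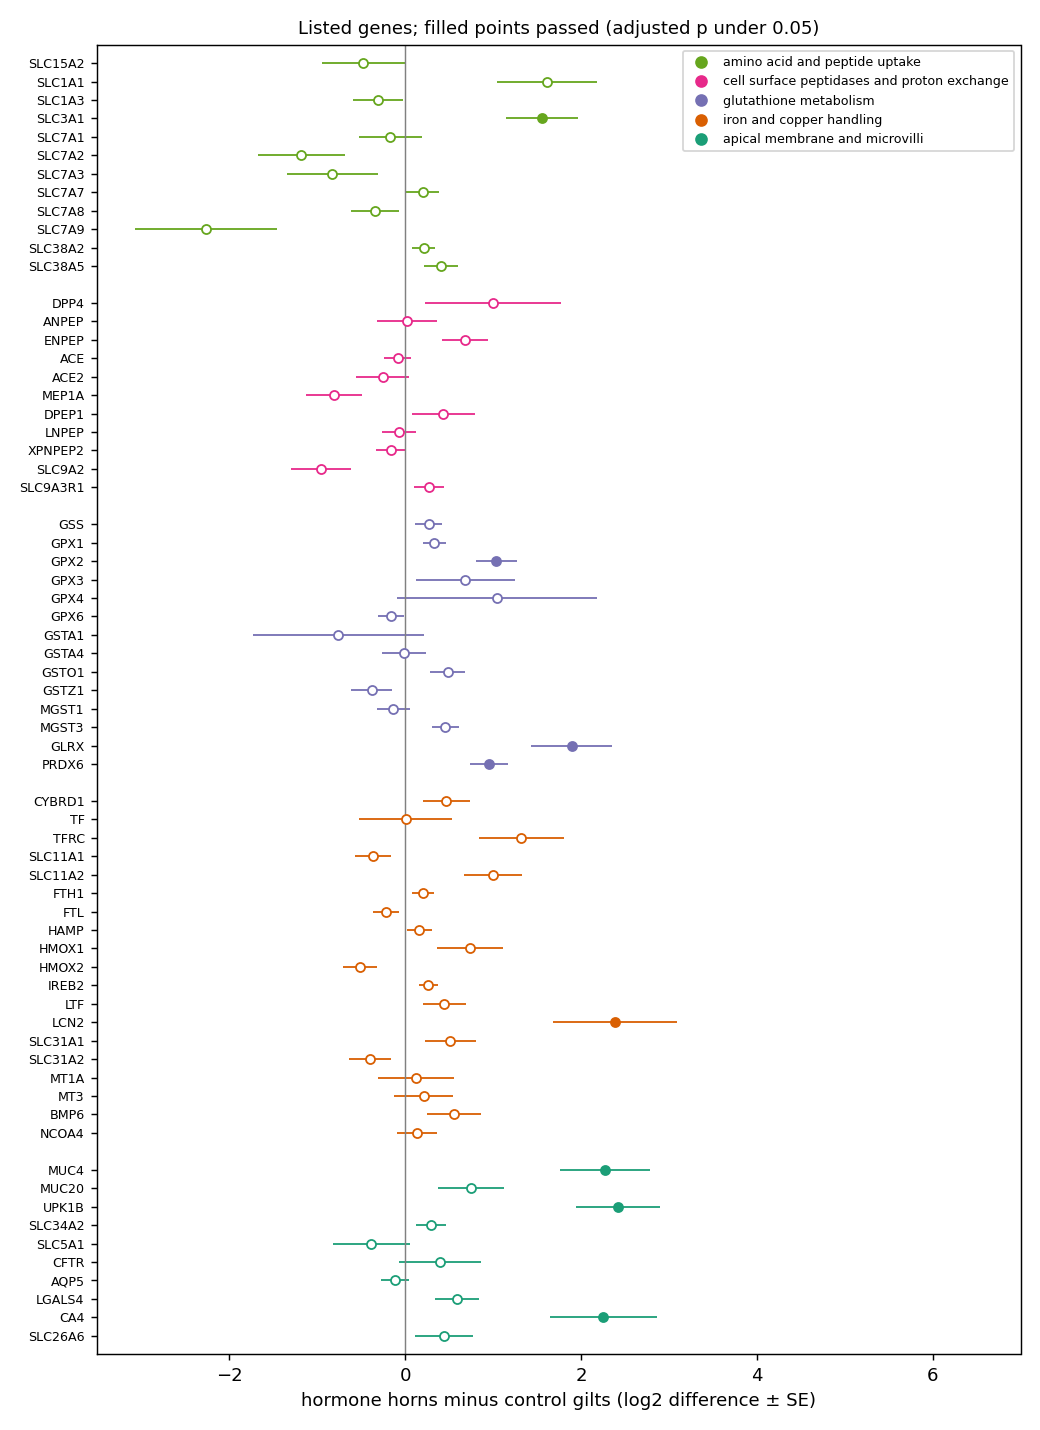
Difference of hormone horns from control gilts (log2 ± SE, limma) for measured genes of 5 lists, from amino acid and peptide uptake at the top to apical membrane and microvilli at the bottom; filled points passed at an adjusted p under 0.05. The 8 filled points all lie to the right of 0, from 0.95 for PRDX6 to 2.42 for UPK1B.

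In placebo horns against control gilts 2 of these listed genes passed, both as higher: GLRX by 1.88 (limma adjusted p = 0.0355) and UPK1B by 1.95 (limma adjusted p = 0.037). Of probes other than the brightest, that of GLRX (2.00), that of MUC4 (2.09, limma adjusted p = 0.036) and 2 of the 5 of PRDX6 (0.86 and 0.87) passed there too. With the brightest probe, neither GLRX nor UPK1B passed after averaging both horns of a control gilt. The same held with any of 5 of the gilts left out in turn (9, 14, 28, 38 or 41 for GLRX and 9, 14, 28, 38 or 47 for UPK1B, highest limma adjusted p 0.116 and 0.133). The list medians were -0.16 for amino acid and peptide uptake, -0.02 for peptidases and proton exchange, 0.15 for glutathione, 0.18 for iron and copper and 0.47 for the apical membrane, beside 0.07 over all genes. In hormone against placebo horns none of the 67 measured genes of the lists passed (limma; 9 had an unadjusted p under 0.05). There the highest value was that of CA4, 1.18 (limma adjusted p = 0.39), followed by SLC3A1 at 0.85 (limma adjusted p = 0.358), the lowest was that of SLC7A9, -0.98, and GLRX was at 0.01. The medians of the 5 lists lay between 0.05 and 0.34, beside 0.07 over all genes.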

How the data were processed

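Endometrial RNA was labelled with Cy3 and hybridised to 1-colour Agilent arrays, 19 in all. Per the file headers, the deposited intensity values come from Agilent Feature Extraction 10.7.3.1 (9.1 per the submitters' processing notes), background-subtracted and detrended within each array. The authors' deposited value table holds log2 values (medians 7.72 to 7.83) whose scaling and centring are not given in the sources used here. It correlated at 0.995 to 0.998 with the scanner values and served as an alternative.

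Control spots and flagged spots were left out, spots of a probe were averaged, and each array was scaled to its 75th percentile. A probe was tested if at least 4 arrays had it well above background, which 39098 did. A single linear model held the 4 groups, with arrays of the same animal treated as correlated (limma 3.58.1, statmod 1.5.0, R 4.3.3; correlation 0.536). P-values were two-sided and adjusted by the method of Benjamini and Hochberg across all probes, with 0.05 as the threshold. The model gives both horns of control gilts equal weight. Since arrays of a gilt are treated as correlated, the unpaired hormone horn of gilt 40 also enters the placebo estimates, which depart from differences of group means. Without gilt 40, placebo horns lay 2.58 above control gilts for SLC15A1, 1.78 for GGT1 and 2.10 for STEAP1. Comparisons with control gilts set animals against animals. Same-gilt deviations correlated at 0.334 to 0.795 in treated and 0.403 to 0.628 in control gilts, against at most 0.113 and 0.0184 between gilts. The fit was tested on simulated data.

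Of 43603 probes, 6768 had a symbol. The brightest probe stands for a gene. Listed genes named are, per list, the 4 with the smallest p in hormone horns against control gilts, the 2 with the smallest p against placebo horns, and family members. Genes of the members' likeness are the 5 highest correlations. DPEP1, GSS and cell type markers beyond this rule were chosen after their values were seen. A few listed genes are not reported here by name. Members and lists were chosen with earlier results of these data known. Alternatives covered normalization, background, filters, blocks, scan day and left-out gilts. The files hold no mean signal, so normexp used median signals, a choice made after seeing the data.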

Additional observations from a re-analysis of the deposited data

Results flagged for a closer look

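Among 112 groups of 4 to 6 arrays checked, 8 held an array far from the others, where chance flags about 1 in 20. SLC3A1 accounted for 3: hormone horn of gilt 40 at 3.68 (next 1.76), placebo horn of gilt 47 at 2.15 (next 0.48) and L horn of control gilt 9 at -0.16 (next 0.19). LCN2 in the placebo horn of gilt 47 was at 2.27 (next -1.65). SLC7A9 in the L horn of control gilt 14 was at 1.50 (next 2.55). SLC9A2 in the placebo horn of gilt 36 was at -1.14 (next -1.96), and SLC34A2 in the hormone horn of gilt 36 at -3.35 (next -4.20). HMOX2 in the P horn of control gilt 9 was at 1.41 (next 0.85), an array on which the median smooth muscle marker lay 2.24 above the control mean. No array of SLC15A1, GGT1 or STEAP1 was far from its group in this sense.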

How the results depend on the processing

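With the gilt not used as a replicate block, 6972 probes passed in hormone horns and 3570 in placebo horns against control gilts, and 0 in hormone against placebo horns (limma; 1147 with an unadjusted p under 0.05), beside 4553, 1728 and 1 with the block. A fixed replicate block for each gilt let 16 pass in hormone against placebo horns. Averaging both horns of control gilts gave 2153, 142 and 0, and the slide as a random block 8293 and 5005. In hormone against placebo horns, quantile normalization gave 32, scan day as a term 5, and normexp on median signals 0 and the authors' deposited values 0. Within scan days 1, 2 and 3, hormone horns against control gilts gave 4, 82 and 0 probes, placebo horns 4, 10 and 0, and hormone against placebo horns 0 each. Leaving out 1 gilt gave 1454 (gilt 14) to 5282 (gilt 36) probes in hormone and 0 (gilt 28) to 3294 (gilt 36) in placebo horns against control gilts, and 0 to 16 (gilt 47) in hormone against placebo horns. Without the hormone horn of gilt 36 the last count was 4, and without gilt 47 as well 21, with 429 for placebo horns against control gilts. No probe passed between L and P horns under any of these. Fewer samples enter the fits within days and without gilts; the cause of the other changes was not tested.

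SLC15A1 in hormone horns against control gilts was 2.33 with normexp on median signals. STEAP1 was 1.51 within day 1 in that comparison, 4.79 within day 3 in placebo horns against control gilts, and 2.60 within day 2 and -0.020 within day 3 in hormone against placebo horns. Left-out gilts moved hormone horns against control gilts over 3.30 to 4.16 for SLC15A1, 2.63 to 3.15 for GGT1 and 2.95 to 3.80 for STEAP1. For placebo horns the ranges were 2.32 to 3.25, 1.54 to 2.19 and, lowest without gilt 47, 1.56 to 2.79. The SLC15A1 difference between L and P horns changed sign with normexp (0.10), the authors' deposited values (0.036), the mean of its probes (0.0054), within days 1 (0.28) and 3 (0.66), and ranged from -0.26 to 0.45 with 1 gilt left out. That of GGT1 was -0.057 within day 2 and that of STEAP1 -0.58 within day 3. Normexp on mean signals was not run, since the files hold none. The low signal of SLC15A1 in gilts 9 and 28 limits its precision, and the number of gilts limits all of these values.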

Other observations

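SLC3A1 and SLC7A9 encode the heavy and light subunits of the same transporter for cystine and basic amino acids, and on some arrays of treated gilts a high level of SLC3A1 stood beside a low level of SLC7A9. SLC7A9 had a level of -3.57 in the hormone horn of gilt 40, -0.88 in gilt 47, -0.45 in gilt 41, -0.15 in gilt 44, 1.09 in gilt 38 and 2.81 in gilt 36. Control horns had levels between 1.07 and 2.75. Gilt 40, with the lowest SLC7A9, had the highest SLC3A1 (3.68), and gilt 36, with the highest SLC7A9, had the lowest SLC3A1 among hormone horns (0.65). In placebo horns SLC7A9 was at 3.17 in gilt 36, 2.46 in gilt 38, 0.98 in gilt 41, 0.51 in gilt 44 and -1.35 in gilt 47, where SLC3A1 was highest (2.15). The placebo horns of gilts 41 and 44 had low SLC7A9 with SLC3A1 at 0.25 and 0.29, inside the control range of -0.16 to 0.42. Against control gilts SLC7A9 in hormone horns had -2.27 ± 0.81 (limma adjusted p = 0.0744) with its brighter probe and -2.29 with the other, and neither passed.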
